A study of Rattus norvegicus with 6 samples.

Results

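Solute carriers are membrane proteins that move amino acids, ions, metals, nucleotides, vitamins and other small molecules across the plasma membrane and the membranes of organelles. The lens has no blood vessels, so its epithelium and fibre cells take up nutrients and clear ions from the surrounding fluid through such carriers. The genes described here are those with a symbol of the Slc series, apart from the Slc2a, Slc16a and Slc25a families and Slc5a3, Slc6a6, Slc38a2, Slc7a11 and Slc30a1. These families and genes were left out, and the members chosen, with earlier results of these data known. The counts below therefore do not hold for solute carriers as a whole. A probe set belonged to the group if its log2 signal was at least 5 on at least 1 of the 6 arrays. Of 274 probe sets for 274 genes, 57 met this rule and 217 stayed under 5 on all arrays. The 57 are part of 5784 probe sets in the whole series that were linked to a gene and met the same threshold.

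RNA was taken from whole lenses of 6 week old male Sprague-Dawley rats, cultured for 6 days. The Control (1 array) had no galactose and received its vehicle, sterile water. The Galactose group (3 arrays) was kept in 30 mM galactose and received the DMSO vehicle of the inhibitors. AZD0156 (1 array) and KU55933 (1 array) are inhibitors of the kinase Atm, each added at 20 µM in galactose for the last 3 days. Whether the Control also received DMSO, and how many lenses went into an array, are not given in the sources used here. Nothing states that the 3 galactose arrays came from separate animals, so the p values below measure the spread between these arrays, which may be technical. The Control and each inhibitor have 1 array, which is assumed to vary like the galactose arrays. In whole lenses, fewer cells of a type and less RNA per cell cannot be told apart.

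The median signal over the 5784 probe sets was 5.79 on the Control, 5.69 to 5.81 on the galactose arrays, 5.55 with AZD0156 and 5.79 with KU55933. Of 16 lens markers, 9 were matched in the probe table and all 9 reached 5, among them the crystallins Cryba1 and Cryab at 13.05 to 13.32 on every array. Of the matched markers of immune cells (5), endothelium (3) and retina (4), 0 reached 5 on any array, and no blood marker was matched. Of 6 matched markers of smooth muscle, iris and ciliary body, the muscle filament gene Des reached 5, with 6.11 on the Control and 3.65 to 4.18 on the other arrays. The lens epithelium factor Foxe3 stood at 6.69 on the Control and at 4.28 to 5.05 on the others. The lens gap junction gene Gja3 stood at 9.09 on the Control and at 7.42 to 7.83 on the others. The epithelial adhesion gene Cdh1 stood at 7.86 on the Control, 7.03, 8.38 and 8.62 in galactose, 7.61 with AZD0156 and 6.87 with KU55933. The part of these marker differences in the results below was not tested.

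Apart from the choice made with earlier results known, the threshold of 5 also used measured values to choose the 57. Of these, 23 reached 5 on all 6 arrays and 10 on 1 array only. There were 12 that reached 5 in a single group, namely Slc12a2, Slc24a2, Slc38a4 and Slc41a2 in the Control, Slc12a4, Slc17a5, Slc35e2b, Slc39a11 and Slc66a3 in galactose, Slc44a2 with AZD0156, and Slc4a4 and Slc39a7 with KU55933. For these 12 the group that is high also let them in, so their differences are partly set by the rule. The same holds for the difference between galactose and the Control in all 17 members under 5 on the Control, Slc43a2, Slc20a1, Slc19a2 and Slc49a4 among them, which entered only through arrays with galactose. It holds too for members with no galactose array at 5, in the differences between galactose and the arrays that let them in. Slc46a3 and Slc22a23 are among them and reached 5 only on the Control and KU55933. The members nearest the threshold were Slc39a7, a zinc carrier of the endoplasmic reticulum, with a highest value of 5.01, and Slc66a3 with 5.03. Just outside it were Slc35b3, a carrier of the sulfate donor PAPS, with a highest value of 4.99, and the zinc carrier Slc39a9 with 4.97. The share of probe sets that met the threshold is given by substrate group, beside 5784 of 19086 for all probe sets linked to a gene. It was 14 of 30 for metals, 11 of 58 for amino acids, 7 of 55 for ions, 5 of 25 for nucleotides, 1 of 9 for vitamins and 19 of 97 for carriers of other or unassigned solutes. A probe set under 5 is not shown to be without transcript. No level is set against that of another probe set here, and these shares do not rank the groups by expression.

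**Figure D1:**
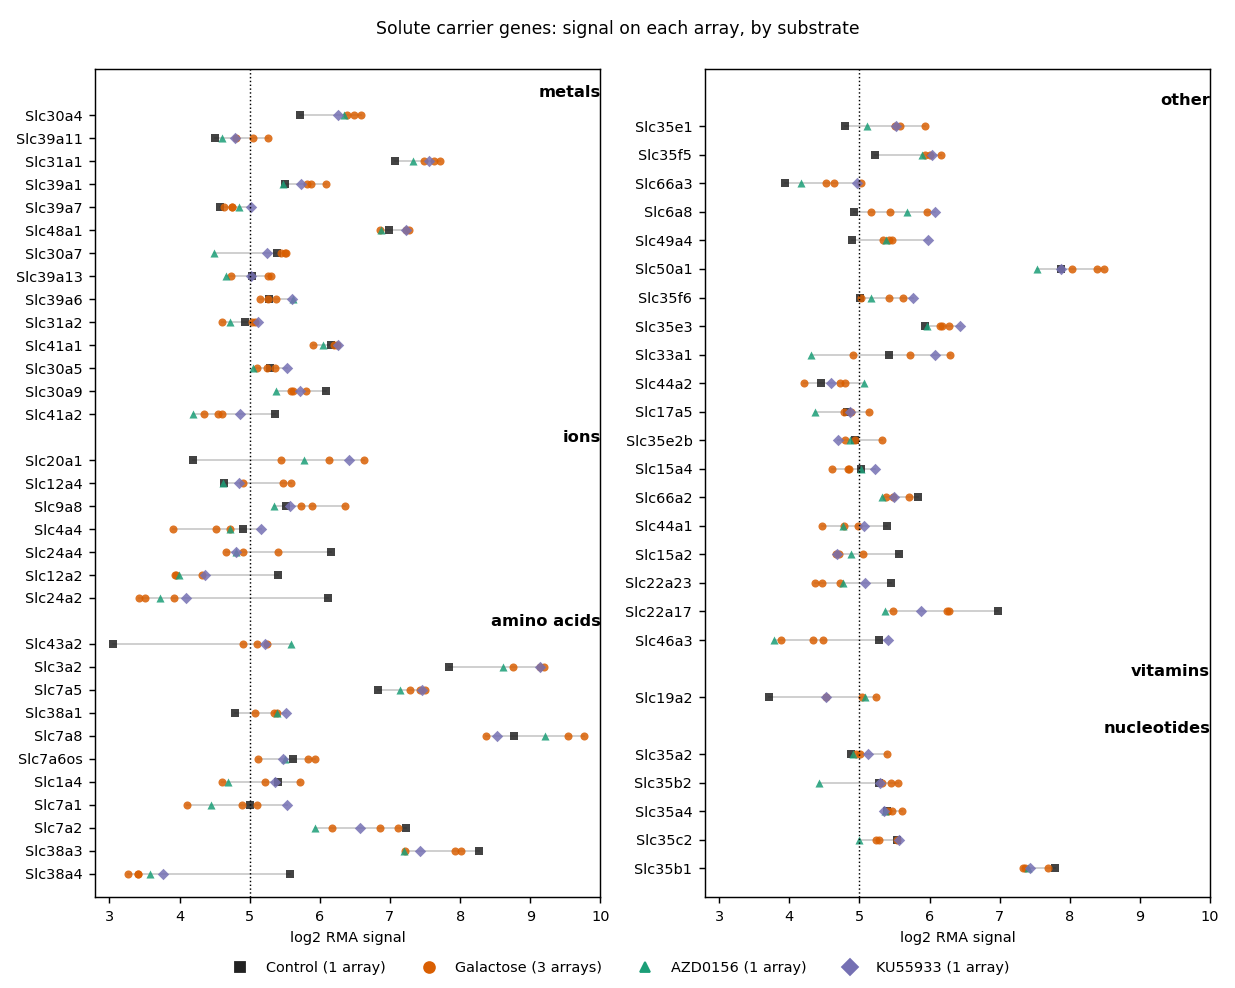
Log2 RMA signal (horizontal axis) of the 57 solute carrier genes on each of the 6 arrays, with 1 row per gene, grouped by substrate and sorted by the difference between galactose and the Control. Squares are the Control, circles the 3 galactose arrays, triangles AZD0156 and diamonds KU55933, and the dotted line is the threshold of 5. Slc43a2, Slc24a2 and Slc38a4 show the Control farthest from the other 5 arrays.

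Galactose lenses were first compared with the Control. The leucine, phenylalanine and methionine carrier Slc43a2 rose and the sodium, potassium and calcium exchanger Slc24a2 fell, and no other member passed an adjusted p of 0.05 (limma, Benjamini-Hochberg over 5784 probe sets). This is 1 of 57 higher, beside 1.61% of all probe sets tested, and 1 of 57 lower, beside 1.26%. Both genes were under 5 on the side where they were low. Of the 37 members whose mean over the 6 arrays was at least 5, limma called 0 (unadjusted p under 0.05 in 6 higher and 2 lower). The share of all probe sets with such a mean is not given here, so these counts do not show a direction of the carriers. The median difference of the 57 was 0.10 on the log2 scale, and that of all probe sets was -0.02. At an unadjusted p under 0.05, 9 members were higher and 9 lower, beside 11.2% and 11.9% of all probe sets. The Control lay below all 3 galactose arrays for 25 of the 57 (32.8% of all probe sets) and above all 3 for 17 (35.2% of all probe sets).

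**Figure D2:**
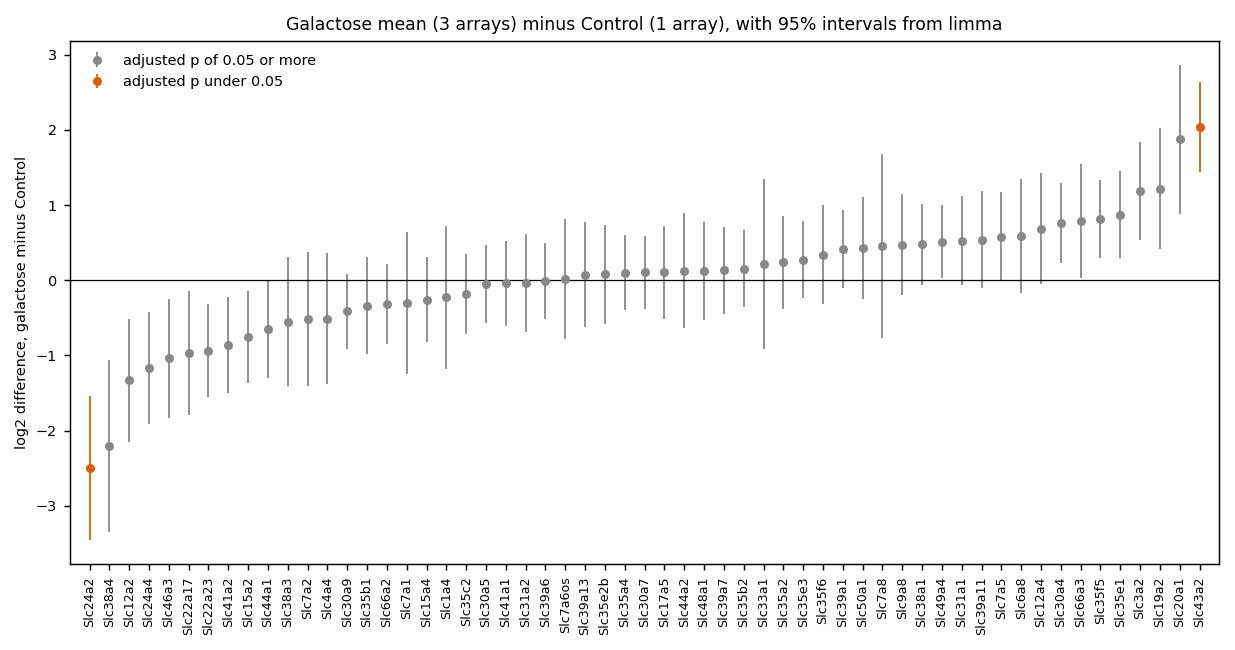
Difference in log2 signal between the mean of the 3 galactose arrays and the single Control array (vertical axis) for each of the 57 genes (horizontal axis), with 95% intervals from limma. Values run from -2.50 for Slc24a2 to 2.04 for Slc43a2, and these 2 are the coloured points with an adjusted p under 0.05.

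The amino acid group held 11 of the members. Their median difference between galactose and the Control was 0.02, with 6 above and 5 below 0, and 1 was called. Slc7a6os matched the rule by its symbol, but it is named for lying opposite Slc7a6 and is not known as a carrier. Without it there were 10, with a median of 0.12, 5 above and 5 below 0. Slc43a2, which lets large neutral amino acids pass without sodium, had a signal of 3.05 on the Control, 4.90, 5.10 and 5.25 on the galactose arrays, 5.59 with AZD0156 and 5.22 with KU55933. All 5 arrays with galactose lay above the Control. The difference was 2.04 (standard error 0.255, adjusted p = 0.0232 from limma), from a Control value under the threshold of 5. The sodium-coupled neutral and cationic amino acid carrier Slc38a4 had the opposite order, with 5.57 on the Control, 3.41, 3.27 and 3.40 in galactose, 3.58 with AZD0156 and 3.76 with KU55933. Its difference was -2.21 (standard error 0.483, adjusted p = 0.066 from limma), which did not pass, although the Control did not overlap with any other array. Another family member, the neutral amino acid carrier Slc38a1, had a difference of 0.48 (adjusted p = 0.266 from limma).

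Slc3a2 encodes the heavy chain that pairs with light chains such as Slc7a5 and Slc7a8 to form exchangers of large neutral amino acids. Slc3a2 stood at 7.84 on the Control, 8.76, 9.20 and 9.14 in galactose, 8.61 with AZD0156 and 9.14 with KU55933. The Control was the lowest array, and the difference of 1.19 (standard error 0.276) had an adjusted p of 0.0732 from limma. Slc7a5 was also lowest on the Control, with 6.83 against 7.28, 7.50 and 7.43 in galactose, 7.14 with AZD0156 and 7.46 with KU55933 (difference 0.58, adjusted p = 0.226 from limma). Slc7a8 overlapped between groups, with 8.76 on the Control, 8.36, 9.54 and 9.76 in galactose, 9.21 with AZD0156 and 8.52 with KU55933. Its SD over the galactose arrays, 0.751, was the largest among the 57 members, whose median SD was 0.229. The low galactose array of Slc7a8 was replicate 1, and KU55933 lay next to it.

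The glutamine carrier Slc38a3 stood at 8.27 on the Control, 7.22, 8.02 and 7.93 in galactose, 7.20 with AZD0156 and 7.42 with KU55933. The carrier of arginine and lysine Slc7a2 stood at 7.23 on the Control, 6.18, 6.85 and 7.11 in galactose, 5.93 with AZD0156 and 6.57 with KU55933. In both the Control was the highest array and galactose replicate 1 the lowest of the 3, with differences of -0.55 (adjusted p = 0.407) and -0.52 (adjusted p = 0.455 from limma). Slc7a1, which carries the same cationic amino acids, had differences of -0.30 in galactose and 0.83 between KU55933 and galactose. The alanine, serine and cysteine carrier Slc1a4 ranged from 4.61 to 5.71 over the galactose arrays, which enclosed the Control at 5.41.

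The amino acid response element is a promoter sequence bound by factors such as ATF4, through which shortage of amino acids raises some carrier genes. Its core TGATGNAA was searched on both strands in the RefSeq promoters of build GRCr8, from 250 bases before to 50 after each gene start. The table held 52 promoters for 48 of the 57 members, and 5 of the 52 held the core (9.62%), beside 1332 of all 33469 (3.98%). They were Slc1a4, Slc7a1 and Slc38a1 among the amino acid carriers, and Slc35a2 and Slc49a4. The first 3 are printed below with the core in capitals, beside Slc43a2, the member that rose, where these letters are not in the window. The windows are chr14:98761513-98761812 on the minus strand for Slc1a4, chr7:129681352-129681651 on the minus strand for Slc38a1, chr12:11664238-11664537 on the plus strand for Slc7a1 and chr10:60874588-60874887 on the plus strand for Slc43a2.
Slc1a4: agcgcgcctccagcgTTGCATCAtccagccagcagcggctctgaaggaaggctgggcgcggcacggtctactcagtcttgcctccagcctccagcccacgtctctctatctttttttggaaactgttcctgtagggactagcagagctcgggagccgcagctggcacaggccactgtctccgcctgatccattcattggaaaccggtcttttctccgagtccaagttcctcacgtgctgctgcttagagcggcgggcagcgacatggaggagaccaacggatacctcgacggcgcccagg
Slc38a1: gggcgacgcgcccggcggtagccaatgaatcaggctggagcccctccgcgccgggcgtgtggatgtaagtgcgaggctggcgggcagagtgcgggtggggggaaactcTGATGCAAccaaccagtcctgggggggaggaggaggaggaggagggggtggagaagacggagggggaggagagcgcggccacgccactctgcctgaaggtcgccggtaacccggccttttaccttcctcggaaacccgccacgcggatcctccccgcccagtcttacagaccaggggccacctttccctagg
Slc7a1: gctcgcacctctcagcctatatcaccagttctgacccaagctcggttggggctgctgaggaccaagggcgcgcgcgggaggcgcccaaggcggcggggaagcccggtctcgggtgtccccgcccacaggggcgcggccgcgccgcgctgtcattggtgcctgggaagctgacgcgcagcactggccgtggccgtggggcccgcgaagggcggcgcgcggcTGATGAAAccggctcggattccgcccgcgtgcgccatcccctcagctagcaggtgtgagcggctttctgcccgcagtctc
Slc43a2: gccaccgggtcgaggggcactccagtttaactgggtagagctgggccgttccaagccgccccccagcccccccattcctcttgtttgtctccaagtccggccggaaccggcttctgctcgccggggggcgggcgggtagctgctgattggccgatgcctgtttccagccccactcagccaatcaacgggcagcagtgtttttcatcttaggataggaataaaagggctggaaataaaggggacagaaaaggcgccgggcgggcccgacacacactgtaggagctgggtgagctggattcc
The core began at -235 from the gene start in Slc1a4 (minus strand of the gene), at -142 in Slc38a1 and at -30 in Slc7a1. None of these 3 carriers was called in any of the 4 comparisons. A match is a description of the letters and does not show binding.

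Ion carriers made up 7 of the members, with a median difference of -0.51 between galactose and the Control, beside -0.02 over all probe sets. The Control lay outside the range of the galactose arrays for all 7, above them in 4 (35.2% of all probe sets) and below them in 3 (32.8% of all probe sets). Slc12a2 and Slc24a2 reached 5 only on the Control, and Slc12a4, Slc20a1 and Slc4a4 were under 5 there. Their part in the group median and in these counts is thus partly set by the threshold. Slc24a2, which removes calcium from cells in exchange for sodium, had a signal of 6.12 on the Control, 3.43, 3.51 and 3.93 in galactose, 3.73 with AZD0156 and 4.09 with KU55933. It fell by 2.50 on the log2 scale (standard error 0.404, adjusted p = 0.0381 from limma), to galactose values under the threshold of 5. Only the Control reached 5, so the call is not independent of the rule. Slc24a4, an exchanger of the same family, stood at 6.16 on the Control, 5.41, 4.66 and 4.90 in galactose, and 4.80 with each inhibitor (difference -1.17, adjusted p = 0.0971 from limma). The sodium, potassium and chloride cotransporter Slc12a2, which loads cells with salt and water, stood at 5.40 on the Control, 4.32, 3.93 and 3.95 in galactose, 3.99 with AZD0156 and 4.36 with KU55933. Its difference was -1.33 (adjusted p = 0.0887 from limma), and the Control was again the only array above 5. The potassium and chloride cotransporter Slc12a4, which moves salt out of cells, had a difference of 0.68 (adjusted p = 0.247 from limma).

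The phosphate carrier Slc20a1 had the largest difference above 0 among the ion carriers. It stood at 4.19 on the Control, 6.63, 5.45 and 6.13 in galactose, 5.78 with AZD0156 and 6.41 with KU55933. The Control was lower than every other array, and the difference of 1.88 (standard error 0.42) had an adjusted p of 0.0674 from limma. The sodium and proton exchanger Slc9a8 stood at 5.52 on the Control, 5.73, 5.90 and 6.36 in galactose, 5.35 with AZD0156 and 5.57 with KU55933. For Slc9a8 the Control and both inhibitor arrays lay below all 3 galactose arrays, with a difference of 0.47 between galactose and the Control (adjusted p = 0.365 from limma). Other members, among them Slc12a4, Slc30a4 and Slc39a1, had this order too. Its share over all probe sets is not given here, and these comparisons share the galactose arrays. The sodium bicarbonate cotransporter Slc4a4 reached 5 only with KU55933, at 5.17, against 4.90 on the Control and 3.91 to 4.72 in galactose.

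Metal carriers made up 14 of the members, and 0 were called in galactose (1.61% of all probe sets higher and 1.26% lower). Before adjustment 1 passed 0.05 upward and 1 downward, beside 11.2% and 11.9% of all probe sets. Their median difference was 0.09, with a range from -0.86 to 0.76. The zinc carrier Slc30a4, which loads zinc into vesicles, stood at 5.72 on the Control, 6.38, 6.58 and 6.49 in galactose, 6.34 with AZD0156 and 6.26 with KU55933. The Control was lower than every array with galactose, and the difference was 0.76 (standard error 0.226, adjusted p = 0.112 from limma). The copper importer Slc31a1 was also lowest on the Control, at 7.08, against 7.48 to 7.71 in galactose, 7.33 with AZD0156 and 7.55 with KU55933 (difference 0.53, adjusted p = 0.266 from limma). The magnesium carrier Slc41a2 ran the other way, with 5.37 on the Control, 4.60, 4.35 and 4.55 in galactose, 4.19 with AZD0156 and 4.87 with KU55933 (difference -0.86, adjusted p = 0.122 from limma). The haem carrier Slc48a1 stood between 6.85 and 7.27 on all 6 arrays, and the Control lay within the galactose range. Slc39a11, of the zinc importer family, had a difference of 0.54 (adjusted p = 0.289 from limma) and reached 5 in galactose only.

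The nucleotide group had 5 members, all of the Slc35 family, which brings nucleotide sugars and related donors into the endoplasmic reticulum and Golgi apparatus. Their differences between galactose and the Control lay between -0.34 and 0.24. At an unadjusted p under 0.05 there were 0 of the 5, beside 11.2% of all probe sets higher and 11.9% lower. Slc35a2, which carries UDP-galactose, the activated form of the sugar given to these lenses, stood at 4.89 on the Control, 4.96, 5.40 and 5.01 in galactose, 4.90 with AZD0156 and 5.13 with KU55933. These values span little more than the galactose arrays alone (difference 0.24, 95% interval -0.38 to 0.86). Slc35b1, which exchanges ATP and ADP across the membrane of the endoplasmic reticulum, had 7.79 on the Control and 7.33 to 7.69 in galactose. Slc35c2 had a difference of -0.18 and Slc35a4 of 0.10.

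The thiamine carrier Slc19a2 was the single vitamin carrier. It stood at 3.71 on the Control, 4.52, 5.03 and 5.23 in galactose, 5.08 with AZD0156 and 4.52 with KU55933. The Control was lowest, and the difference of 1.22 (standard error 0.34) had an adjusted p of 0.101 from limma.

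Among the 19 carriers of other or unassigned solutes, the median difference was 0.13 and 0 were called (1.61% of all probe sets higher and 1.26% lower). Before adjustment 4 passed 0.05 upward and 4 downward, beside 11.2% and 11.9% of all probe sets. Slc46a3, a carrier of the lysosome membrane, stood at 5.27 on the Control, 4.48, 3.89 and 4.34 in galactose, 3.79 with AZD0156 and 5.41 with KU55933. The Control and KU55933 lay above the other 4 arrays and were the only ones to reach 5. The difference between galactose and the Control was -1.04 for Slc46a3 (adjusted p = 0.129 from limma). Slc22a17, a receptor for lipocalin 2, stood at 6.97 on the Control and 5.48, 6.28 and 6.25 in galactose (difference -0.97, adjusted p = 0.164 from limma). Slc22a23, whose substrate is not assigned, stood at 5.46 on the Control and 4.37 to 4.72 in galactose (difference -0.94, adjusted p = 0.101 from limma). Slc35f5 and Slc35e1, also without an assigned substrate, had differences of 0.82 and 0.87 (adjusted p = 0.094 and 0.102 from limma). The sugar carrier Slc50a1 stood at 7.87 on the Control, 8.02, 8.49 and 8.38 in galactose, 7.53 with AZD0156 and 7.87 with KU55933. For Slc50a1 the galactose arrays were the 3 highest, an order whose share over all probe sets is not given here. Its difference between galactose and the Control was 0.43 (adjusted p = 0.41 from limma). Slc35e3 had a difference of 0.27, and the creatine carrier Slc6a8 of 0.59 (adjusted p = 0.318 from limma).

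Each inhibitor was then compared with galactose alone, and both comparisons share the 3 galactose arrays and with them every chance deviation of these arrays. limma called 0 of the 57 members higher or lower with AZD0156, beside 0.0% of all probe sets in each direction. At an unadjusted p under 0.05, 0 members were higher (1.33% of all probe sets) and 4 were lower (12.4% of all probe sets). These 4 were Slc30a7, Slc35b2, Slc33a1 and Slc50a1. The median difference was -0.20 for the members and -0.18 for all probe sets. AZD0156 lay below all 3 galactose arrays for 29 of the 57 members, beside 46.6% of all probe sets, and above all 3 for 7, beside 14.2%.

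Slc35b2 carries PAPS, the sulfate donor for glycosaminoglycans and other sulfated molecules, into the Golgi apparatus. It stood at 5.28 on the Control, 5.32, 5.55 and 5.44 in galactose, 4.42 with AZD0156 and 5.30 with KU55933. The zinc carrier of the Golgi apparatus Slc30a7 stood at 5.38 on the Control, 5.44, 5.50 and 5.52 in galactose, 4.49 with AZD0156 and 5.25 with KU55933. In both genes AZD0156 stood apart from the other 5 arrays, which lay within 0.27 of each other. The difference from galactose was -1.02 for Slc35b2 (95% interval -1.53 to -0.50) and -1.002 for Slc30a7 (95% interval -1.49 to -0.52), each at an adjusted p of 0.212 from limma. Slc35b3, the other PAPS carrier and just outside the threshold, stood at 4.99 on the Control, 4.83 to 4.99 in galactose, 4.20 with AZD0156 and 4.83 with KU55933. Slc33a1, which carries acetyl-CoA into the endoplasmic reticulum, stood at 5.42 on the Control, 4.90, 5.72 and 6.29 in galactose, 4.31 with AZD0156 and 6.07 with KU55933. Its difference with AZD0156 was -1.32 (95% interval -2.45 to -0.20, adjusted p = 0.313 from limma), and the galactose arrays themselves spread over a wide range. Slc7a2 and Slc50a1 had differences of -0.78 and -0.77 with AZD0156 (adjusted p = 0.412 and 0.324 from limma). For Slc50a1, AZD0156 was the lowest array of all, below the Control.

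With KU55933, limma again called 0 of the 57 members higher or lower, beside 0.0% of all probe sets. At an unadjusted p under 0.05, 2 were higher (2.3% of all probe sets) and 0 lower (1.16% of all probe sets). The 2 were the lysosomal carriers Slc46a3, with a difference of 1.18, and Slc49a4, with 0.57, both at an adjusted p of 0.992 from limma. Slc46a3 reached 5 only on the Control and KU55933, so its difference is not independent of the rule. Slc49a4 stood at 4.90 on the Control, 5.47, 5.34 and 5.42 in galactose, 5.38 with AZD0156 and 5.97 with KU55933. The highest array was KU55933 and the lowest the Control. The median difference was 0.06 over the members and 0.05 over all probe sets. KU55933 lay above all 3 galactose arrays for 21 of the 57 members, beside 29.9% of all probe sets, and below all 3 for 10, beside 17.7%. The other large differences with KU55933 were those of Slc7a1 (0.83), Slc4a4 (0.78) and Slc7a8 (-0.70), each at an adjusted p of 0.992 from limma.

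**Figure D3:**
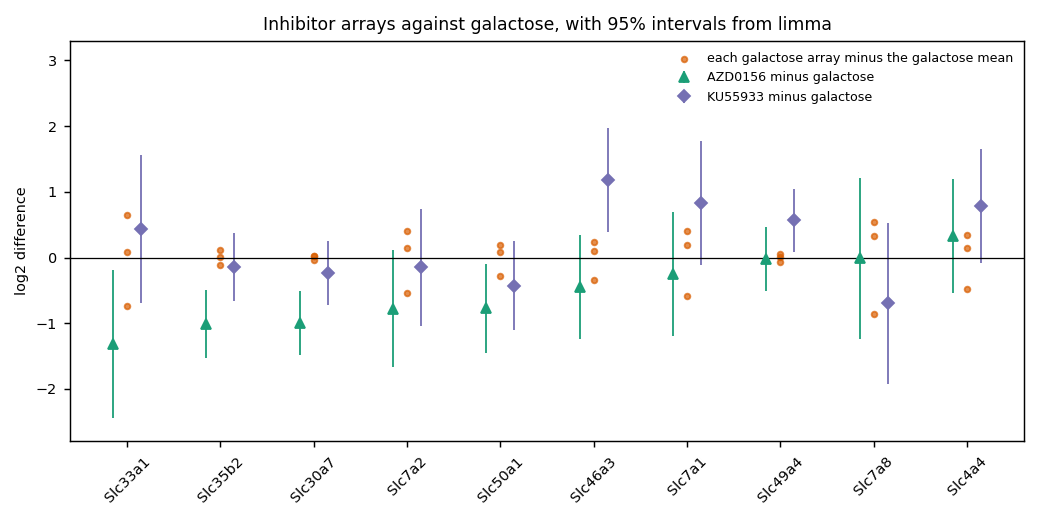
Difference in log2 signal from the galactose mean (vertical axis) for the 10 genes with the largest differences with either inhibitor (horizontal axis). Triangles are AZD0156 and diamonds KU55933, with 95% intervals from limma, and circles are the single galactose arrays. Slc35b2 and Slc30a7 lie about 1 below galactose with AZD0156, and Slc46a3 lies 1.18 above galactose with KU55933.

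Since concentration and duration were the same, AZD0156 was also set against KU55933 directly, as 1 pair. Whether the same concentration of each inhibits Atm equally was not tested. The median difference was -0.32 over the members and -0.23 over all probe sets. limma called 0 of the 57 members higher or lower, beside 0.0% of all probe sets. At an unadjusted p under 0.05, 0 members were higher (0.882% of all probe sets) and 4 were lower with AZD0156 (10.8% of all probe sets). The lowest p was that of Slc46a3, with a difference of -1.63 (95% interval -2.60 to -0.66, adjusted p = 0.314 from limma). Of these 2 arrays only KU55933 reached 5 for Slc46a3, so this difference is partly set by the rule as well. The differences of Slc33a1, Slc35b2 and Slc30a7 were -1.76 (95% interval -3.14 to -0.38), -0.88 (95% interval -1.51 to -0.25) and -0.77 (95% interval -1.36 to -0.17), at adjusted p of 0.355, 0.335 and 0.355 from limma. For Slc3a2 and Slc20a1 the differences were -0.53 (95% interval -1.33 to 0.27) and -0.63 (95% interval -1.85 to 0.58). The 95% intervals of the members reached a median of 0.799 to each side (log2), so these arrays do not show that the inhibitors act alike on the carriers.

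**Figure D4:**
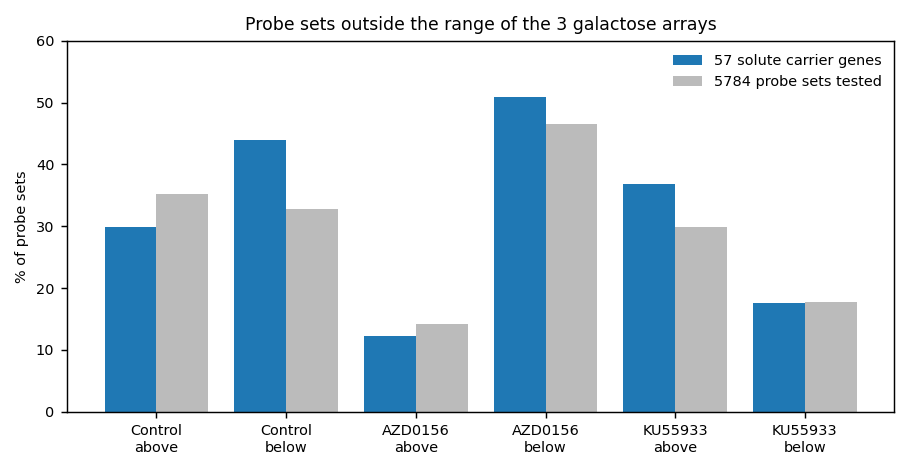
Share of probe sets (vertical axis, percent) whose value on the Control, AZD0156 or KU55933 array lay above or below all 3 galactose arrays. Blue bars are the 57 solute carrier genes and grey bars all 5784 probe sets, with 50.9% against 46.6% below galactose with AZD0156.

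The 3 galactose arrays did not stand alike for these genes. Replicate 1 was the lowest of the 3 for 38 of the 57 members, beside 48.2% of all probe sets, and the highest for 11, beside 28.8%. Without replicate 1, limma called 15 members higher and 9 lower in galactose, 0 higher and 11 lower with AZD0156, 3 higher and 1 lower with KU55933, and 1 higher and 5 lower between the inhibitors. In that fit the prior degrees of freedom were 108.2, against 4.97 with all arrays, 7.46 without replicate 2 and 5.22 without replicate 3. The spread of each gene then counted for little, and these counts do not compare directly with those of all arrays. The share of all probe sets called in that fit is not given here, so the counts cannot be read as particular to the carriers. Slc43a2 did not pass without replicate 3 (adjusted p = 0.0828), and Slc24a2 did not pass without replicate 2 (0.0894) or without replicate 3 (0.0973 from limma).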

How the data were processed

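The deposited values, 1 per probe set of the GeneChip Rat Gene 2.0 ST array, are log2 signals. In R, the authors ran all 6 arrays through the Robust Multi-array Average algorithm. Its package, version and annotation are not given in the sources used here. Only 6 arrays were available, which limits the precision. The values were used as deposited. Of 36685 probe sets, 19086 were linked to a gene in the platform's probe table (18511 to 1 symbol), and as in the study's methods those under 5 on all arrays were left out, leaving 5784.

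A linear model with 4 group means was fitted to the 6 arrays (limma 3.58.1, R 4.3.3), with moderation that follows the mean signal. Its 2 residual degrees of freedom come from the galactose arrays, and the single arrays are assumed to vary like them. Adjusted p values are Benjamini-Hochberg values over the whole tested table and were called under 0.05. The fit was also tried on simulated data in which all 6 arrays vary alike by construction. That trial cannot test the assumption about the single arrays.

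The members, substrate groups and tests were chosen with earlier results of these data known. Substrate groups follow the carrier families, with exceptions per gene. Named are members called in any comparison, the 3 with the highest mean and the 3 with the largest galactose difference in each group, the 5 with the largest difference for each inhibitor, those nearest the threshold, and Slc3a2 with its light chains. The mean served only to choose which members to name. Others (Slc1a4, Slc12a4, Slc35f5, Slc35e1, Slc6a8, Slc38a1, Slc7a6os and those that reached 5 in 1 group only) were named after their values were seen. Alternatives were the filter, the scaling, the moderation, 1 probe set per gene and leaving out each galactose array.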

Additional observations from a re-analysis of the deposited data

How the results depend on the processing

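The median difference of the members between galactose and the Control was 0.10, and it ran from 0.0034 without galactose replicate 3 to 0.2177 with a mean of at least 5 as the filter, where 37 members are left. Taken on each galactose array alone, this median had an SD of 0.123. With each array centred on its median, the median difference moved from -0.20 to -0.0045 for AZD0156 against galactose and from -0.32 to -0.0825 for AZD0156 against KU55933, as the construction of that scaling takes out the lower median of the AZD0156 array. With a mean of at least 5 as the filter, 0 members were called higher and 0 lower in galactose, since Slc43a2 and Slc24a2 are then not tested. With no filter on low values, or without the trend in limma, 2 members were lower, Slc24a2 and Slc38a4 (adjusted p = 0.0204 and 0.0135 for Slc38a4). Leaving out each galactose array in turn, the members called numbered 0 to 15 higher and 0 to 9 lower in galactose against the Control, 0 to 11 lower with AZD0156 against galactose, 0 to 3 higher and 0 to 1 lower with KU55933 against galactose, and 0 to 1 higher and 0 to 5 lower with AZD0156 against KU55933. The highest count came without galactose replicate 1 in each case, in the fit where the spread of each gene counted for little. The share of all probe sets called in these fits is not given here, so the counts cannot be read as particular to the carriers. Without replicate 2, Slc20a1 passed in galactose as well (adjusted p = 0.0304 from limma). For the 38 differences of named members, the direction was the same under every alternative in which they were tested, and over all pairs of a difference and an alternative, 28 passed the threshold where the difference had not and 3 no longer passed. No paired analysis was possible because only the galactose group has replicate numbers.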
